A study of Mus musculus with 20 samples.

Results

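HPRT knockdown and control cultures were compared on day 6 of neuronal differentiation, the day that the study itself set aside as discrepant in its pathway analysis. The 2 libraries of that day, 1 per line, were chosen from the 20 libraries of the series by their labels. HPRT, encoded by Hprt, is the purine salvage enzyme whose loss causes Lesch-Nyhan disease. D3 (ESD3) mouse embryonic stem cells of strain 129s2/SvPas, maintained on feeder cells of mouse embryo fibroblasts, were formed into spherical neural masses and differentiated towards dopaminergic neurons. Both lines were infected with a virus that delivers a short hairpin RNA, directed against luciferase in the control line and against HPRT in the knockdown line. The labels call the virus a retrovirus, and the study's methods describe a lentiviral vector, selection with puromycin and a hairpin designed against the human HPRT gene. Each line was 1 transduced population. According to the methods, RNAs were pooled for each line and time point, and no untransduced cells were among these libraries. With 1 library per line and day there is no replicate error on any value, no test was made, and genes are described by the size of their ratios.

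The measure was the log2 ratio of knockdown to control, so that 1 stands for a doubling in the knockdown library and a negative value for a lower level in it. Of 37566 genes in the day 6 table, 13440 reached a typical log2 count of at least 4 (at least 16 normalized counts) over all tables and were examined. The deposited values give ratios and not levels, so the depth of the libraries is unknown and genes can be compared only in their ratios. A gene was counted as higher or lower on day 6 when its ratio was at least 1.5-fold. The mean of the ratios of days 4 and 8 served as the reference, since those are the collection days on either side. Genes with the same sign on both days and a mean of at least 1.5-fold were called reference genes, and each was then kept (1.5-fold in the same direction on day 6), lost (below 1.5-fold) or reversed (1.5-fold in the opposite direction). Ratios of different days come from different libraries, but the tables were normalized separately, and in a culture of mixed cells fewer cells of a type and less RNA per cell cannot be told apart.

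Differentiating stem cell cultures pass from pluripotent, rapidly dividing cells through neural progenitors to neurons and glia. Oct4 (Pou5f1) and Nanog maintain the pluripotent state, the MCM proteins unwind DNA ahead of replication forks in dividing cells, lysosomal hydrolases break down macromolecules in nearly all cells, and myelin proteins are made by mature oligodendrocytes. Such cultures can also contain mesodermal cells, among them muscle.

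Hprt, the targeted gene (chrX:50341314-50374836, plus strand, NCBIM37/mm9), had a log2 ratio of -3.42 on day 6. The neighbouring days 4 and 8 had -4.94 and -4.38, and the other 9 days ranged from -5.0 to -2.53. The day 6 ratio therefore carried the direction of the labels and lay inside the range of the other days. Relative to the midpoint of its own days 4 and 8, Hprt stood 1.36 higher in the knockdown library of day 6 and 0.06 higher in the control library. Of the neural markers, the progenitor genes Nes, Sox2 and Pax6 and the neuronal genes Tubb3 and Dcx all reached a typical log2 count of at least 8.

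On day 6, 1469 of 13440 genes (10.9%) were higher in the knockdown library and 2039 (15.2%) were lower. Together these were 26.1% of the genes, against 35.2% on day 4 and 31.8% on day 8. The reference genes of days 4 and 8 numbered 3997 (29.7%). On day 6, 942 of them were kept (23.6%), 2300 were lost (57.5%) and 755 were reversed (18.9%). Over all 13440 genes these counts were 7.01%, 17.1% and 5.62%. Only reference genes can be kept, lost or reversed, so a list rich in them can exceed the shares over all genes for that reason alone. Among the 2270 reference genes that were higher on days 4 and 8, 453 were kept (20.0%), 1345 were lost (59.3%) and 472 were reversed to lower (20.8%). The 1727 that had been lower divided into 489 kept (28.3%), 955 lost (55.3%) and 283 reversed to higher (16.4%). A further 1704 genes (12.7%) reached 1.5-fold on day 6 while the mean of days 4 and 8 did not, 693 of them higher (5.16%) and 1011 lower (7.52%).

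**Figure D1:**
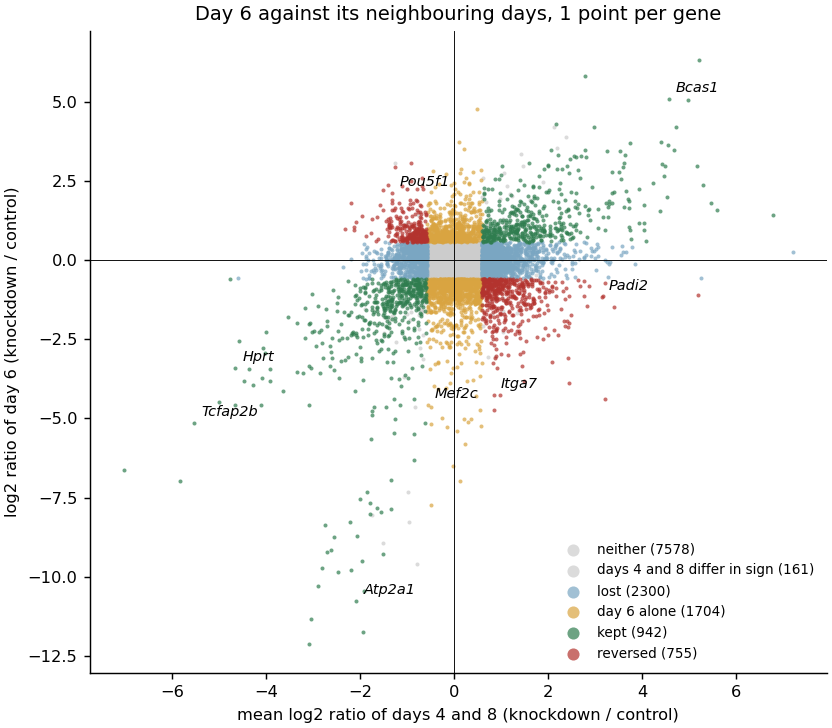
Log2 ratio of knockdown to control on day 6 (y axis) against the mean of the log2 ratios of days 4 and 8 (x axis) for 13440 genes, 1 point per gene, coloured by class with the number of genes in the key. The 755 reversed genes fill the upper left and lower right corners, and a group of genes, among them Atp2a1 at -10.76, lies below the rest of the plot.

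The same classes applied to the other days gave smaller shares of reversed genes. For days 1, 2, 3, 10 and 12, each against its own neighbours, 1.35%, 1.45%, 2.25%, 1.37% and 0.754% of the reference genes were reversed, and 65.3% to 78.3% were kept. Day 4 had 9.02% reversed when day 6 was one of its neighbours and 2.67% when days 3 and 8 were used instead. For day 8 the share was 4.25% with day 6 and 0.824% with days 4 and 10. Across genes, the ratios of day 6 and the mean of days 4 and 8 had a Pearson correlation of 0.249, while days 4 and 8 themselves had 0.679. These correlations are descriptions across genes, which share libraries and are not independent. On day 6, 5922 genes (44.1%) had a ratio outside the range of the other 9 days, compared with 33.6% on day 0, the next highest share, and 6.83% on day 3, the lowest. The day 6 ratio of 657 of the 755 reversed genes lay outside that range. Part of this count follows from the class itself, since a reversed gene lies outside the range of days 4 and 8 by definition.

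**Figure D2:**
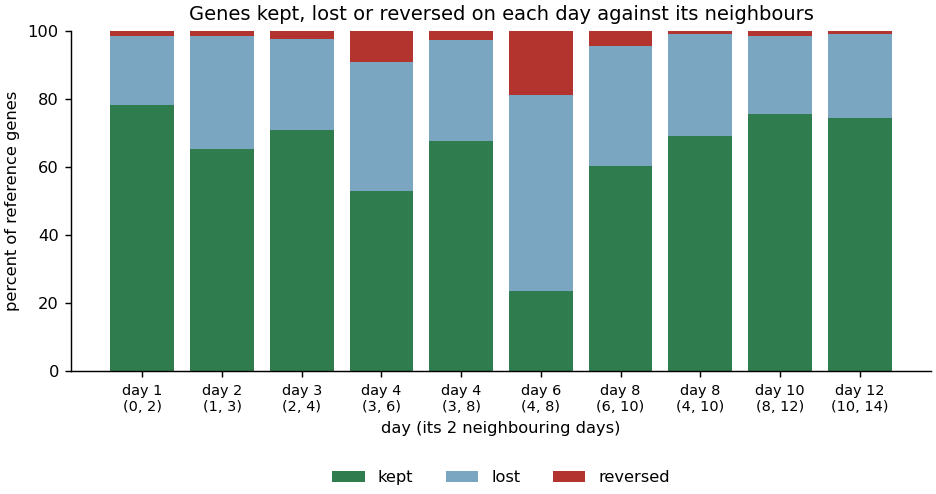
Percent of reference genes (y axis) that were kept, lost or reversed on each day, with the 2 neighbouring days used as reference in brackets (x axis), 1 library per line and day. Day 6 has the smallest kept share, 23.6%, and the largest reversed share, 18.9%, and the next reversed share, 9.02%, is that of day 4 when day 6 serves as its neighbour.

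Genes of skeletal muscle had the lowest ratios of day 6. Myh1, a fast myosin heavy chain, was at -12.11 and the troponin Tnnc2 at -11.33, but the tables that hold them disagreed by more than 0.1 on the log2 scale, and both are named after their values were seen. Among genes whose tables agreed within 0.1, the lowest was Atp2a1, the calcium pump of fast muscle, with a log2 ratio of -10.76, against -1.17 and -3.00 on days 4 and 8. In the same set Myh3, the embryonic myosin heavy chain, followed with -10.30 and Acta1, skeletal muscle actin, with -9.84. Next came Mybph, a myosin binding protein, at -9.79, the troponins Tnni1 at -9.51 and Tnnt3 at -9.28, Chrna1, the acetylcholine receptor subunit of the neuromuscular junction, at -9.22, and the troponin Tnnt2 at -9.15. These 8 were also lower on both neighbouring days, by less, and so counted as kept. A list of muscle and heart genes that had 11 members examined had 10 of them lower (against 15.2% of all genes), with a median of -7.95 against -1.07 and -2.45 on days 4 and 8.

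The muscle genes were followed by role with a list written after these values were seen, so its counts are a description. All 41 skeletal muscle genes examined were lower on day 6, and their median ratio was -7.68. On days 3, 4, 8, 12 and 14 their median was -5.21, -0.67, -2.18, -5.90 and -7.45, and day 0 was the only day with a median above 0, at 1.0. Low muscle genes in the knockdown line were thus found on several days, and days 4 and 8 were among those with the smaller differences. Filament genes were lower than the other groups, with a median of -8.29 for 23 genes. Of these, 20 were reference genes and 19 were kept, against 7.01% of all genes and 23.6% of all reference genes. Calcium handling genes had a median of -4.76 for 6 genes and energy supply genes -4.30 for 3. Myogenic factors were closer to 0, at -1.23 for the 4 examined. Of these, Mef2c was at -4.59 on day 6 and at -1.09 and -0.05 on days 4 and 8, while Eya1 was reversed, with 1.49, -0.76 and 0.40 on days 4, 6 and 8.

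A further 21 rows of the list were below the level filter over all tables and enter no count. Among them Myod1, the factor that commits cells to muscle, had ratios of -0.07, -7.64 and 0.47 on days 4, 6 and 8, and Myog, which drives their differentiation, had -0.39, -8.52 and -1.85. The genes listed separately as heart and smooth muscle genes did not share these values. The median over 4 heart genes was -0.23, with 2 lower and 2 higher, and over 6 smooth muscle genes it was -0.45. Several genes also expressed in heart stood on the skeletal list instead, among them Tnnt2 at -9.15, Casq2 at -8.06, Actc1 at -7.68 and Myh7 at -3.26. The contrast with heart therefore depends on how the lists were drawn up. Myh6, the heart myosin, had -1.72, -1.86 and -0.92 on the 3 days. Gata4, a heart and endoderm factor, had -2.75, -1.38 and -0.33.

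Most of the muscle difference of day 6 lay in the control library. The control level of the 41 genes stood 5.14 (median log2) above the midpoint of its days 4 and 8, and the knockdown level stood at -0.38. For Mybph the control library was 7.16 above its midpoint and the knockdown library was at -0.38, and for Tnni1 the values were 6.82 and -0.65. Ratios of this size may rest on few reads in the knockdown library. For 9 of the 41 genes, both tables that set the knockdown library of day 6 beside a neighbouring knockdown library held a library below 16 normalized counts. For the 17 with a ratio of -8 or lower the day 6 table could not show it. A count of 0 had been entered as 1, so exact folds are not given.

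The promoters of both muscle genes with the largest departures from days 4 and 8 among those holding the E box CAGCTG are shown, since this is the sequence bound by MyoD family factors (RefSeq, GRCm38.p6, 250 bases before to 50 after the gene start, 5′ to 3′ on the gene's strand, motif in capitals). They lie at chr7:126463024-126463323, minus strand, for Atp2a1 and at chr1:134193198-134193497, plus strand, for Mybph.
Atp2a1: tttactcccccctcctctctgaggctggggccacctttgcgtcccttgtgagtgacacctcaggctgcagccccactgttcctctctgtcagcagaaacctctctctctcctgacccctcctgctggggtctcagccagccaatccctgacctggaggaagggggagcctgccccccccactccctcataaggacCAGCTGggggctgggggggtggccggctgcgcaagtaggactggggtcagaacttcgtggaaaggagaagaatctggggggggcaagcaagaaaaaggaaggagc
Mybph: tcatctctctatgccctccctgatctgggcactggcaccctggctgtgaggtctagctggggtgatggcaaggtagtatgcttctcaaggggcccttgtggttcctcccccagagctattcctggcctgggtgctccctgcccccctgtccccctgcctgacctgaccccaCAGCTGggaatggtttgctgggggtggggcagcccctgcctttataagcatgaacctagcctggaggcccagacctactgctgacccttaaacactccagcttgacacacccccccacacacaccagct
The motif reads the same on both strands. It was present for 15 of 33 skeletal muscle genes with a promoter in the table (45.5%), for 26.8% of the 366 genes reversed to lower, for 25.3% of the genes kept lower and for 17.9% of the 10508 examined genes with a promoter. Of all 32851 promoters in the table, 16.3% held it. At a typical log2 count of at least 8, only 6 of the skeletal muscle genes with a promoter remained, and 1 of them held it (16.7%), against 16.8% of all genes at that level. The motif was chosen after the values were seen.

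Genes reversed to lower on day 6 were led by Itga7, the laminin receptor of muscle fibres, with log2 ratios of 1.49, -4.26 and 0.18 on days 4, 6 and 8. Cryab, a small heat shock protein abundant in muscle and lens, had 2.34, -2.49 and 1.45. Padi2, a peptidylarginine deiminase found in oligodendrocytes and muscle, had 3.26, -1.17 and 3.01. Serpinf1, which encodes the secreted factor PEDF, had 3.40, -1.45 and 2.26, and the tetraspanin Cd82 had 2.46, -1.92 and 2.23. In all 5 the control library accounted for most of the distance, standing 3.47 to 5.14 above its midpoint while the knockdown library stayed between -0.75 and 0.10. The genes that were lower on day 6 alone were led by Mef2c and by Tmem38a and Srl, both of the sarcoplasmic reticulum, at -2.87 and -2.75. Tbx15 was at -2.75 and Bin1, which shapes the membrane tubules of muscle, at -2.73.

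Pluripotency genes led the reversal in the opposite direction. Pou5f1 (Oct4) had log2 ratios of -1.3, 2.13 and -1.34 on days 4, 6 and 8 and was below 0 on all other days, from -6.83 to -0.51. Enpp3, an ectonucleotidase, had -0.54, 2.58 and -0.84. Ifitm1, an interferon-inducible membrane protein of early germ cells, had -1.84, 1.41 and -2.11. Tdh, the threonine dehydrogenase on which mouse embryonic stem cells depend, had -2.20, 0.97 and -2.47, and Klf2 had -1.06, 1.31 and -1.75. These 5 were the leading genes of the class. For each of them the knockdown library stood above its midpoint, by 1.49 to 2.51, and the control library stood below its own. Over the whole pluripotency list the control library was the farther from its midpoint, at -1.28 (median) against 0.33 for the knockdown library.

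Of 35 pluripotency genes examined, 18 were higher (against 10.9% of all genes), 8 were lower (15.2%), 17 were reversed (5.62%) and 6 were kept (7.01%). Among the 35 were 28 reference genes, and over all reference genes 18.9% were reversed and 23.6% were kept. The list had a median of 0.64 on day 6, and on the other 9 days it lay between -6.72 and -0.86. Among core factors, Nanog had -1.50, 1.24 and -1.43 on days 4, 6 and 8 and Sall4 had -1.16, 1.56 and -1.05, whereas Esrrb was lost at 0.36. Prdm14, a repressor of differentiation, had 2.38 on day 6 after -1.76 and before -1.07. Nodal, the ligand of the early embryo, had 1.20, and its antagonist Lefty1 had 1.91. The naive state factors Klf4 and Zfp42 (Rex1) kept their direction, with -1.52 and -0.73 on day 6, and so did Dppa3, Dppa4 and Lin28b, as well as Fgf5 of the epiblast. The reversal therefore did not extend to every pluripotency gene. Of the 4 core factors, 3 were reversed, and of the 8 naive factors 3 were reversed and 2 were kept.

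Genes of DNA replication were higher on day 6 after being lower on day 4 and before being lower on day 8. Of 53 examined, 21 were higher (against 10.9% of all genes) and none was lower (15.2%). Of these 53, 18 were reversed (5.62%), 14 were lost (17.1%) and none was kept (7.01%). Reference genes made up 32 of the 53. Over all reference genes 18.9% were reversed, 57.5% were lost and 23.6% were kept. The list median was 0.52 on day 6, against -0.71 and -0.62 on days 4 and 8, and over the other 9 days it lay between -1.31 and -0.51. Among the 8 MCM genes, 6 were reversed and 2 were lost. Mcm6 had -0.92, 0.86 and -0.85 on days 4, 6 and 8, and Mcm5 had -1.01, 0.80 and -0.88. The highest was Orc1, the largest subunit of the origin recognition complex, at 1.35, with -1.17 and -1.58 on the neighbouring days. Dna2, a nuclease of lagging strand maturation, had -1.56, 1.13 and -1.23. The lowest was Gins2 of the replicative helicase, at -0.37. Genes of deoxynucleotide supply had the smallest median of the roles, 0.13 over 6 genes, with Rrm2 at 0.04.

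Other lists tied to cell growth also had a median above 0 on day 6 and below 0 on days 4 and 8. The median of 45 mitosis genes was 0.49 on day 6 and -0.50 and -0.37 on days 4 and 8, with 15 higher (against 10.9% of all genes) and none lower (15.2%). For 36 DNA repair genes the values were 0.50, -0.46 and -0.52, with 14 higher and none lower, to be read against the same shares. Genes of homologous recombination had the highest median of that list, 0.69, and those of nucleotide excision repair the lowest, -0.09. Ribosome biogenesis genes had 0.40 against -1.06 and -0.68, with 14 of 20 lost (against 17.1% of all genes) and 3 reversed (5.62%). Of these 20, 17 were reference genes, and over all reference genes 57.5% were lost and 18.9% were reversed. The median of 28 nuclear pore genes was 0.34 against -0.67 and -0.59, with 5 higher (against 10.9% of all genes) and none lower (15.2%). Of these 28, 16 were lost (17.1%) and 3 were reversed (5.62%). Reference genes made up 19 of the 28, to be read against the same 57.5% and 18.9%. Cytosolic ribosomal proteins had a median of 0.22 over 27 genes against -0.64 and -0.36, none reached 1.5-fold and none was reversed. For DNA replication the knockdown library stood 0.87 (median) above the midpoint of its days 4 and 8, and the control library stood at -0.45. For ribosome biogenesis the values were 0.93 and -0.43.

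Promoters of 3 reversed DNA replication genes are shown because they hold an E2F site, the sequence through which E2F factors drive genes of the S phase (RefSeq, GRCm38.p6, same window, motif in capitals). They are at chr4:108579204-108579503 for Orc1, chr2:132815891-132816190 for Mcm8 and chr8:75109259-75109558 for Mcm5, all on the plus strand, and are the ones farthest from days 4 and 8 among those with the motif. In Mcm5 a pair of matches overlaps.
Orc1: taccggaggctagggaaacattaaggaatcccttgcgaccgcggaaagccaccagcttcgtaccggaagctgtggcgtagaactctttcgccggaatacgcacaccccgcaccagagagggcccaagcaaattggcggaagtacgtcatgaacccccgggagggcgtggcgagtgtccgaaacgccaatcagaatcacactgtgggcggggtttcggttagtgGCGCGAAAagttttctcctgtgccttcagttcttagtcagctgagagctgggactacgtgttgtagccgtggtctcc
Mcm8: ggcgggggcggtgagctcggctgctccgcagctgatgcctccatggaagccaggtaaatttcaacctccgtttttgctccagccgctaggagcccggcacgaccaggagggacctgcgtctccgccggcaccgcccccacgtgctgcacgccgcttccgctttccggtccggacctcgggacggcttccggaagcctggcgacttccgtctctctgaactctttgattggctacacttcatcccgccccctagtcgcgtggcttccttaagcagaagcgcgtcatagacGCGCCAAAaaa
Mcm5: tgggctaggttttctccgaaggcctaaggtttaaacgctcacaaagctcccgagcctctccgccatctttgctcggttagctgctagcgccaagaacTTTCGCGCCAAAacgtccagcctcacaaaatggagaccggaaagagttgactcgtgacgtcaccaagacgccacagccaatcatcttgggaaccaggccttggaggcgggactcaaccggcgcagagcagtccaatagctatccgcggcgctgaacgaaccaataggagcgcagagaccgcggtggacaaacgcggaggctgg
The letters searched were TTTCCCGC, TTTGGCGC, TTTCGCGC and TTTGCCGC on both strands. One of them was present for 15 of 43 DNA replication genes with a promoter (34.9%), for 21 of 214 genes reversed to higher (9.81%) and for 4 of 366 reversed to lower (1.09%). The shares were 6.72% of the genes lost from lower and 3.04% of those lost from higher. Among all examined genes with a promoter the share was 4.65%, and among all promoters 2.26%. The CCAAT box was found in 41.1% of the genes reversed to higher and in 43.0% of all examined genes, and for 25 of the 43 DNA replication genes (58.1%).

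**Figure D3:**
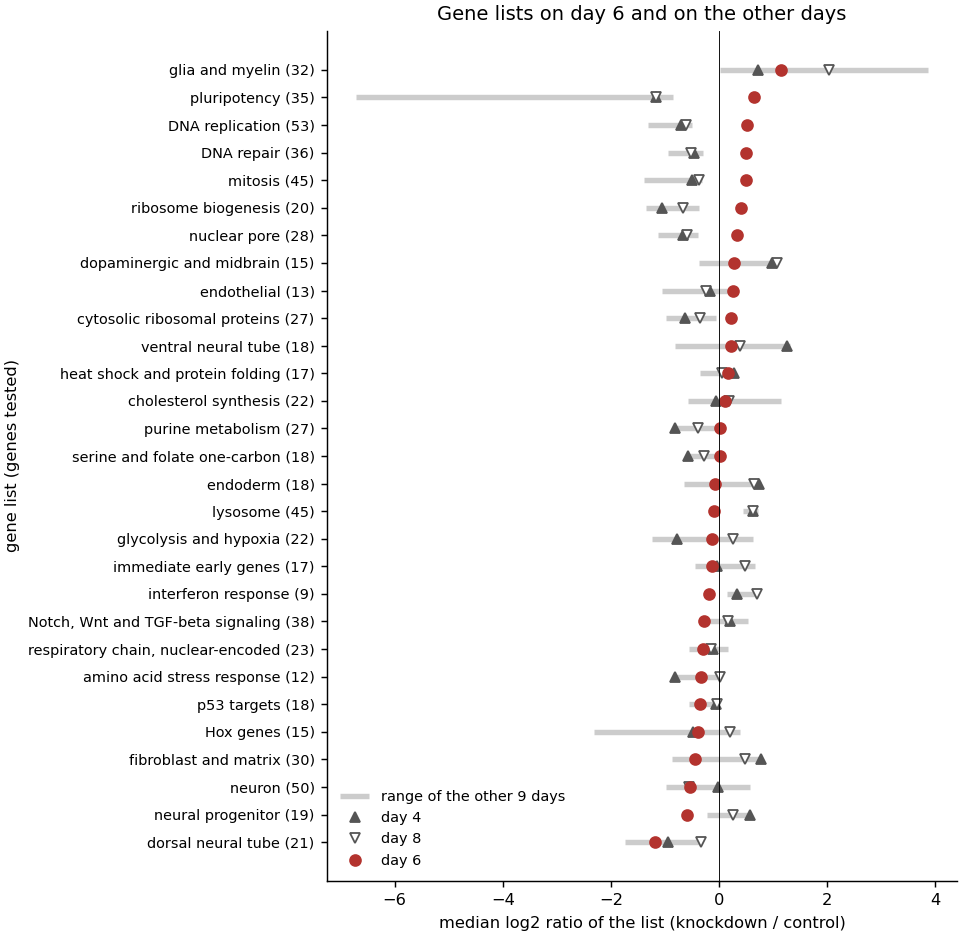
Median log2 ratio of knockdown to control (x axis) for 29 gene lists (y axis, genes examined in brackets) on day 6 (red), day 4 and day 8, with the range of the other 9 days in grey. The muscle and heart list, with a median of -7.95 on day 6, is left out for scale. DNA replication at 0.52, pluripotency at 0.64 and lysosome at -0.10 lie outside the grey range.

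Lysosome genes lost their difference on day 6. Their median was -0.10, against 0.62 and 0.63 on days 4 and 8 and between 0.44 and 0.72 over the other 9 days. Of 45 genes, 22 were lost (against 17.1% of all genes), 2 were reversed (5.62%) and 2 were kept (7.01%), so that the reversed and kept counts were no larger than the shares over all genes. Reference genes made up 26 of the 45, and over all reference genes 57.5% were lost. The tetraspanin Cd63 had 1.25, -1.0 and 0.99 on days 4, 6 and 8, and the protease cathepsin D (Ctsd) had 0.94, -0.89 and 0.86. Hexa, a hydrolase of gangliosides, was lost, with 0.89, 0.02 and 0.94, and Idua, which degrades glycosaminoglycans, was kept, with 1.06, 0.70 and 0.78. The E box CACGTG, the core of the element bound by the lysosomal regulator TFEB, was present for 14 of 37 lysosome genes with a promoter (37.8%) and for 11.7% of all examined genes. By class the share was 10.2% of genes lost from higher and 9.02% of those reversed to lower. It was 14.1% of genes lost from lower and 16.8% of those reversed to higher, so the motif did not mark the loss from higher.

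The genes lost from higher were led by Pde1a, a phosphodiesterase, with log2 ratios of 3.40, -0.05 and 3.21 on days 4, 6 and 8. Paqr7, a membrane progestin receptor, had 3.30, 0.43 and 2.82. The secreted protease Htra1 had 4.40, 0.13 and 1.71. Mgll, which breaks down the endocannabinoid 2-AG, had 3.01, 0.35 and 3.03, and Plekhb1 had 2.81, 0.06 and 3.18. On the side lost from lower were Cbx7, a Polycomb subunit, with -2.27, -0.12 and -1.62, and Pttg1 (securin), with -2.44, 0.52 and -1.40. The kinase Rps6ka1 had -1.57, 0.28 and -1.84 and the homeodomain factor Meis2 had -1.31, -0.30 and -2.03.

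Several of the highest ratios of day 6 belonged to oligodendrocyte and myelin genes. Among genes whose tables agreed within 0.1, the highest were Neu4, a sialidase, at 6.31, Zfp488, an oligodendrocyte zinc finger factor, at 5.82, and Bcas1, a marker of newly formed oligodendrocytes, at 5.09. Mag, the myelin-associated glycoprotein, and Fa2h, which hydroxylates myelin lipids, both had 4.2, and Plxnb3 had 3.89. The other two of the 8 highest in this set were 9630013A20Rik at 4.77 and Dbpht2 at 4.29, and for Fa2h and both of these the day 6 table held a library below 16 normalized counts. Bcas1 had 1.86 on day 4 and 7.25 on day 8, so that day 6 lay between its neighbours. The other genes leading those kept higher were S100b and Shh, described with their lists, the adhesion molecule Cntn1, with 0.94, 3.49 and 4.61 on days 4, 6 and 8, and Lhfpl3, with 1.09, 3.27 and 4.07. Genes higher on day 6 alone were led by Sox10, at 2.85, with Plcg2, a phospholipase, at 2.27, Arid3b at 1.88 and Gm98 at 1.84. Of these, Sox10 and Gm98 were also above 1 on day 8, with 3.11 and 1.11, and Plcg2 and Arid3b were at 0.22 and -0.49.

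Of 32 glia and myelin genes, 18 were higher (against 10.9% of all genes), 5 were lower (15.2%), 12 were kept (7.01%) and 3 were reversed (5.62%). The lower count was near the share over all genes. Among the 32 were 23 reference genes, and over all reference genes 23.6% were kept and 18.9% were reversed. The roles separated within this list. Oligodendrocyte factors had a median of 1.87 over 6 genes, myelin proteins 1.3 over 8 and enzymes of myelin lipids 2.88 over 3. The 10 astrocyte genes had -0.72. For 2 of the 3 enzymes a day 6 library was below 16 normalized counts, and none of the 3 reached a typical log2 count of 8. On day 4 the myelin proteins had a median of -1.03, and 2 of the 8 examined were kept. Olig2 had 1.81, 0.96 and 3.36 on days 4, 6 and 8. Sox10, the factor that specifies oligodendrocytes, had -1.96, 2.85 and 3.11, and Mbp, the myelin basic protein, had -0.87, 3.37 and 3.71, so for both day 6 resembled day 8 and not day 4. Astrocyte genes differed from these. Aqp4, the astrocyte water channel, was reversed, with 2.05, -1.17 and 1.13, Gfap was lost at -0.49, and S100b, which oligodendrocytes also express, was kept, with 2.09, 3.75 and 6.70.

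Part of the neuronal genes were lower on day 6. Of 50 examined, 25 were lower (against 15.2% of all genes), 5 were higher (10.9%), 12 were kept (7.01%) and 2 were reversed (5.62%). Reference genes made up 21 of the 50, and over all reference genes 23.6% were kept and 18.9% were reversed. The list median was -0.54 on day 6, below 1.5-fold, and -0.03 and -0.55 on days 4 and 8. By role it was -0.91 for 14 genes of cytoskeleton and adhesion and -0.82 for 8 proneural factors, but -0.09 for 15 synapse genes and -0.20 for 8 transmitter genes. Nefl, the light neurofilament, had -0.99, -3.11 and -4.22 on days 4, 6 and 8. Tubb3 had -0.51, -1.55 and -2.0, Dcx of migrating neurons had -0.55, -1.45 and -2.31, and Neurog1, a proneural factor, had -0.78, -2.61 and -4.83. Th, which makes the dopamine precursor and defines the intended neurons, had 0.86, -2.66 and -0.57. For both Th and Neurog1 the day 6 table held a library below 16 normalized counts. The vesicular transporter Slc18a2 and Ddc, both needed to make and store dopamine, were lost, at 0.38 and 0.33.

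Many patterning genes of the neural tube were kept. Of 21 dorsal genes, 11 were kept, and of 18 ventral genes 9 were kept, compared with 7.01% of all genes. The dorsal list held 17 reference genes and the ventral list 13, and over all reference genes 23.6% were kept. Pax7 had -6.52, -6.99 and -5.16 on days 4, 6 and 8, and Pax3 had -4.80, -3.43 and -3.04, both of them markers of dorsal progenitors that muscle precursors also use. Shh, the ventralizing signal, had 5.83, 2.98 and 4.51, and its target Foxa2 had 2.45, 1.92 and 2.27. Nkx2-1, a factor of the ventral forebrain, was lost, with 6.68, 0.27 and 7.74, the largest loss of the list. Tcfap2b, a neural crest factor, had -6.69, -5.15 and -4.38 and led the genes kept lower, followed by Cyp26b1, which degrades retinoic acid, with -3.91, -3.96 and -4.66. Scrt1, a repressor of newborn neurons, was also among those leading genes, with -1.07, -2.46 and -3.69. Progenitor genes were mostly lower on day 6. Of 19 examined, 11 were lower (against 15.2% of all genes) and 2 were higher (10.9%). Their median was -0.59, against 0.56 and 0.25 on days 4 and 8, and the other 9 days ranged from -0.23 to 0.56. Of their 12 reference genes 5 were kept and 4 were reversed to lower, against 23.6% and 18.9% of all reference genes. Nes (nestin) was reversed, with 1.18, -1.49 and 0.38, and Pax6 was kept, with -2.44, -1.60 and -2.55. Sox2, among the 2 that were higher, had 0.01, 1.07 and 0.21.

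**Figure D4:**
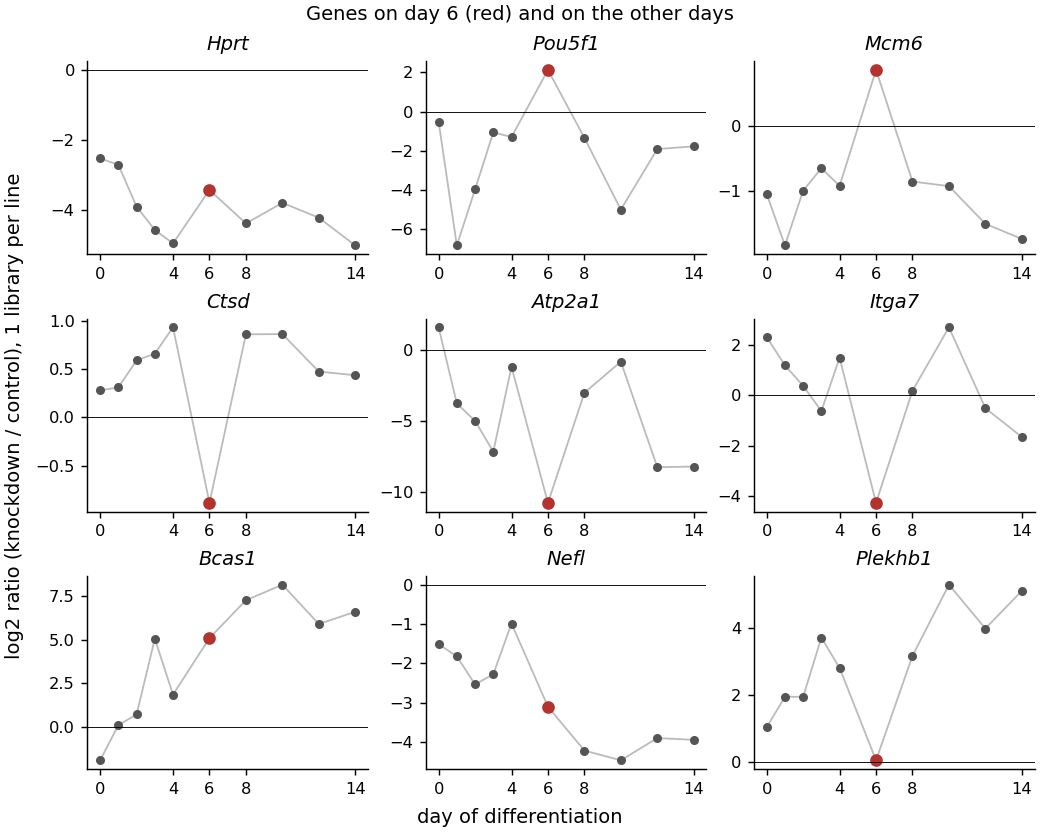
Log2 ratio of knockdown to control (y axis, a scale for each gene) by day of differentiation (x axis) for 9 genes, 1 library per line and day, with day 6 in red. Pou5f1 at 2.13 and Mcm6 at 0.86 lie above 0, Ctsd at -0.89 and Itga7 at -4.26 lie below it, and Plekhb1 at 0.06 lies near it on that day, while Hprt, Bcas1 and Nefl stay within the range of their other days.

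Genes of fibroblasts and matrix, which feeder cells could also supply, were checked beside these results. Of 30 examined, none was higher (against 10.9% of all genes) and 14 were lower (15.2%), and the median was -0.45 on day 6 against 0.78 and 0.48 on days 4 and 8. Col1a1 had 1.48, -0.48 and 0.94, and S100a4 had 0.57, -3.82 and 2.40, the widest departure of the list. The control library stood 0.71 (median) above its midpoint for this list and the knockdown library stood at -0.47. Over the whole list the other 9 days ranged from -0.87 to 0.78, so the day 6 median lay inside that range. Endothelial genes had a median of 0.27 over 13 genes, with 4 higher and 3 lower against the same shares. Muscle, fibroblast and pluripotency genes thus differed between the libraries of day 6 together with the growth and lysosome genes, and their part in the other differences was not tested.

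Purine genes, the pathway of HPRT itself, had a median near 0. Of 27 examined, 10 were lost (against 17.1% of all genes), 3 were reversed (5.62%) and 2 were kept, one of them Hprt. Among the 27 were 15 reference genes, and over all reference genes 57.5% were lost and 18.9% were reversed. The kept count was near the share of 7.01% over all genes. The median was 0.02 against -0.81 and -0.38 on days 4 and 8. De novo synthesis had a median of 0.40 over 8 genes, against -1.11 and -0.65. Ppat, which catalyses its first committed step, had -1.13, 0.83 and -0.88, and Pfas had -0.86, 0.87 and -0.50. Adssl1, the muscle form of adenylosuccinate synthase, was kept, with -2.16, -3.21 and -0.68. Gmpr was lower on day 6 alone, at -0.99.

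Each line was then compared with its own course, through the tables of consecutive days. For the 472 genes reversed to lower, the control library of day 6 stood 1.57 (median log2) above the midpoint of its days 4 and 8, and the knockdown library stood at -0.53. The control line moved farther than the knockdown line in 396 of them (83.9%). For the 283 genes reversed to higher, the knockdown library stood 1.11 above its midpoint and the control library stood at -0.70. Here the control line moved farther in 62 (21.9%). Over all genes the medians were -0.02 and 0.01, and the control line moved farther in 47.8%. In 154 of the 283 and in 202 of the 472, both lines departed by at least 1.5-fold from their own midpoints, in either direction. Among all 13440 genes both lines did so in 1222, but the reversed genes were selected for a large change on day 6. These departures use the same day 6 libraries that set the classes and are a description. Genes lost from higher had 0.50 in the control and -0.40 in the knockdown line, and genes lost from lower had -0.42 and 0.60. Genes kept lower were below the midpoint in both lines, at -0.44 and -0.45.

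**Figure D5:**
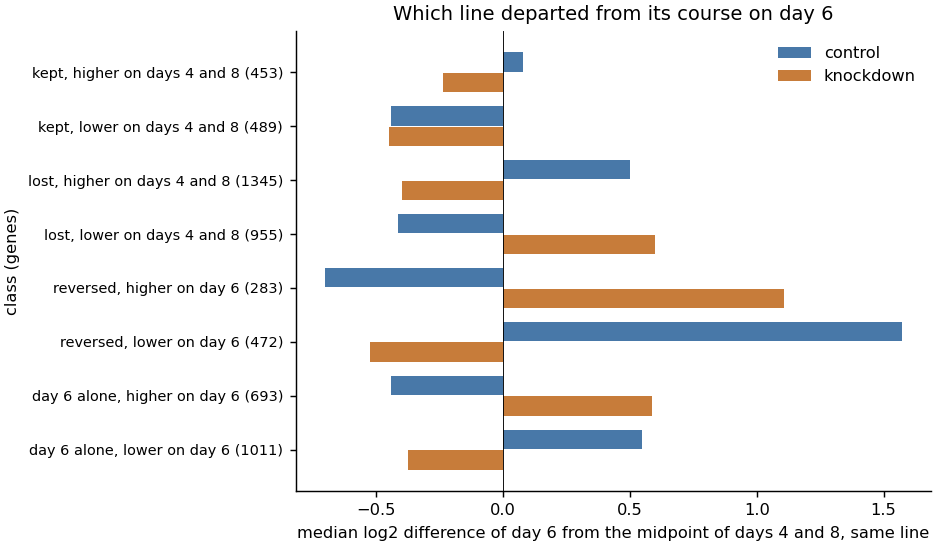
Median log2 difference of the day 6 library from the midpoint of days 4 and 8 of the same line (x axis) for each class (y axis, genes in brackets), with a bar for the control and a bar for the knockdown line. Genes reversed to lower have the longest control bar, 1.57, and genes reversed to higher have the longest knockdown bar, 1.11.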

How the data were processed

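RNA-seq ran for 50 cycles on an Illumina HiSeq. Per the study's methods and the submitters' processing notes, reads were aligned to mm9 with CASAVA 1.8.2, then gene counts were made in Avadis NGS and normalized with DESeq. The authors deposited 28 tables of 2 libraries each, holding log2 normalized counts minus the mean of both libraries, normalized within each table. Zero counts had been entered as a log2 value of 0. Differences within tables of 1 day gave the knockdown to control ratios, and tables of consecutive days gave the steps of each line. Typical levels were read from the single-precision rounding of the values, as a median over all tables. Whole counts could not be recovered, so depth is unknown and no counting interval is given. No batch was examined, since neither lanes nor run dates are named in the labels.

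Groups came from the labels, and with 1 library each no test was made. Named genes were Hprt, the 8 highest and 8 lowest ratios, the 5 leading genes of each class and direction whose typical log2 count reached 8, and for each of 30 lists the highest, the lowest and the one farthest from days 4 and 8, all with tables disagreeing by at most 0.1, plus further list members where a statement turned on them. Some genes that the rule names are not reported here. Members and lists were chosen with earlier results of these data known. The 3 separate muscle lists and the CAGCTG motif were added after the values were seen. Gene positions came from GENCODE M1 on NCBIM37. A RefSeq promoter was found for 10508 of 13440 genes, and any promoter of a gene counted. The class calls were tested on simulated data. Alternatives were other level filters, 2-fold, centring, other reference days, agreement between tables and ratios through other tables. Python 3.11.15, numpy 2.4.6 and pandas 2.3.3 were used.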

Additional observations from a re-analysis of the deposited data

Results flagged for a closer look

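The medians of 30 gene lists, the ratio of Hprt and the number of genes called were each compared over the 10 days, and a day was marked when its gap to the nearest other day took up an unusually large part of the whole range. For 10 independent, normally distributed values the limit marks about 1 in 20 measures. Successive days of the same lines are not such values, and the lists were chosen with earlier results known. That rate therefore does not apply here, and the number of marks was not tested. Of 32 measures 6 were marked, 4 of them on day 6, and the lists share libraries, so these are not independent. On day 6 the medians of DNA replication (0.52), DNA repair (0.50) and nuclear pore genes (0.34) were the highest of the 10 days, and that of lysosome genes (-0.10) was the lowest. Cholesterol synthesis genes were highest on day 10, at 1.14, and Hox genes were lowest on day 2, at -2.32. Single genes chosen for their day 6 ratio were not put through this comparison, since the choice used that value.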

How the results depend on the processing

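No paired analysis was possible because the labels give no replicate numbers and each group held 1 library. Where the level filter was raised to a log2 count of 8, 531 genes were higher and 870 lower, 286 were kept, 1357 lost and 351 reversed (131 to higher, 220 to lower), and 738 were called on day 6 alone. Fewer genes were examined there, and the shares of reference genes were 14.3%, 68.1% and 17.6%. The list medians became -1.23 over 2 dopaminergic and midbrain genes, -0.57 over 14 p53 targets and 0.39 over 5 interferon response genes. Only 1 endothelial gene remained, at -0.57, so most of these values rest on few genes. Without a level filter, 2399 genes were higher and 3341 lower, 1571 were kept and 2685 were called on day 6 alone. At 2-fold, 598 were higher and 1055 lower, 480 kept, 1068 lost, 188 reversed (54 to higher, 134 to lower) and 950 on day 6 alone, and 17 list members were reversed against 87. The reversed share of day 6 was then 10.8% and the highest of any other day 5.80%. That highest share was 5.43% with the stricter level filter and 2.67% when day 6 served as no neighbour. Leaving out genes with a library of day 6 below 16 normalized counts or a ratio of at least 8, added after the data were seen, moved the median of dorsal neural tube genes from -1.19 to -0.61. Counts of kept, lost and reversed genes stayed within 1.5 times under centring, under day 4, day 8 or the mean of the other 9 days as reference, with genes whose tables agreed within 0.1 and with ratios through other tables. With the mean of the other 9 days, however, 401 were reversed to higher and 347 to lower, so the larger direction changed. Depth is unknown, which limits the muscle ratios.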

Other observations

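Single genes of several lists lay far from their neighbouring days. Hoxa10 had log2 ratios of -1.66, 3.75 and 1.85 on days 4, 6 and 8, while the other Hox genes examined lay between -3.17 and 1.07 on day 6. Among endothelial genes, Pecam1 had -0.23, 1.8 and -0.57 and Cldn5 had -0.77, 1.39 and -0.24, and Kdr and Cdh5 were lost at 0.27 and 0.41. Among neural tube genes Tlx3, a sensory neuron factor, had -4.32, -0.58 and -4.88. These genes were chosen after their values were seen.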
